A study of Homo sapiens with 6 samples.

Results

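Cells obtain nucleotides either by building purine and pyrimidine rings anew or by salvage, in which ready-made nucleosides and bases are taken up and turned back into nucleotides. Equilibrative transporters carry nucleosides across the membrane down their gradient, kinases phosphorylate nucleosides and thereby trap them, and phosphoribosyltransferases attach bases to a ribose phosphate. The same proteins take up and activate nucleoside drugs. The mRNA of 10 genes (members) of this route was examined in TE1 cells. SLC29A1 and SLC29A2 serve transport, and ADK, HPRT1, APRT and PNP act on purine nucleosides and bases. UCK2 is a kinase of uridine and cytidine, TK1 of the deoxynucleoside thymidine, and DCK and DGUOK of other deoxynucleosides.

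The members were selected by gene symbol with the FPKM values of FGL1-OE and NC cells already known. Their differences between these groups are therefore a description and no independent test. All 10 symbols are listed among 12180 genes, and 35 of the 33090 listed transcripts belong to them.

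TE1 is a cell line from a human esophageal squamous cell carcinoma (ESCC). The FGL1-OE cells (3 libraries) carry a lentiviral FGL1 overexpression construct, and the control cells (NC, 3 libraries) are given as wild type in the sample labels and as carrying a nonsense sequence in the study's methods. The methods describe stable lines under puromycin selection and state neither the number of clones nor whether the libraries come from separate cultures, so the spread between libraries may be technical. Poly(A) RNA was sequenced from strand-marked libraries, and the values are FPKM, fragments scaled for transcript length and for the fragments mapped in the library. FGL1, the check of the labels, was listed at 0 to 0.106 FPKM in the NC libraries and at 33.5 to 39.9 FPKM in the FGL1-OE libraries.

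The sum of FPKM over the gene table was 210904 to 226307, and the read depth is unknown. The NC libraries resembled each other less than the FGL1-OE libraries, with correlations of log2(FPKM + 1) across genes of 0.885 to 0.964 and 0.981 to 0.986. Of 13 epithelial markers, 11 were listed, while KRT14 and PKP1 were not and TP63 was at 0.299 to 0.779 FPKM. Their summed level was 1032 to 1775 FPKM in NC and 1426 to 1637 FPKM in FGL1-OE. KRT18 (294 to 505 FPKM over all libraries) and KRT8 (218 to 465 FPKM) were highest by mean, and KRT5 was at 4.27 to 6.24 FPKM. The sum is therefore no measure of squamous identity. Markers of other cell types were low, with 3 of 7 fibroblast markers listed (2.29 to 8.11 FPKM summed in NC, 3.24 to 8.27 in FGL1-OE), 2 of 7 leukocyte markers (3.11 to 6.06 and 3.62 to 5.67) and 0 of 4 endothelial markers. PTPRC, COL3A1, DCN and PECAM1 were not listed, and the highest genes of the low lists were COL1A1 (1.42 to 5.55 FPKM) for fibroblasts and CD68 (2.25 to 5.73 FPKM) for leukocytes.

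Several members encode more than 1 protein form, and the listed transcripts differ in stretches that matter for what follows. The stretches below were read from GENCODE v29 on GRCh38, 5′ to 3′ on the coding strand, and capitals mark the bases that 1 transcript has and the other lacks. ADK is transcribed from a pair of starts, and the upstream one gives a protein of 362 codons (ADK-201) known to reside in the nucleus, the downstream one a cytoplasmic protein of 345 codons (ADK-202). The capitals in ADK-201 lie at chr10:74151279-74151343 (+ strand) and those in ADK-202 at chr10:74176873-74176886 (+ strand), followed by the first 30 shared bases.
ADK-201: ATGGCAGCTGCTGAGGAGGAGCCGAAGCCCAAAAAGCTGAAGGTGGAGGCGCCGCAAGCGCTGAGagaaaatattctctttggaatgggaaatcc
ADK-202: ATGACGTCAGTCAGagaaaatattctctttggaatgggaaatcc

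SLC29A2-202 contains a coding exon of 134 bases (chr11:66366431-66366564, - strand) that SLC29A2-207 lacks. With this exon the coding sequence has 456 codons, the same in SLC29A2-202, SLC29A2-205 and SLC29A2-206, and without it 361 codons. It is shown with 30 bases on either side.
SLC29A2-202: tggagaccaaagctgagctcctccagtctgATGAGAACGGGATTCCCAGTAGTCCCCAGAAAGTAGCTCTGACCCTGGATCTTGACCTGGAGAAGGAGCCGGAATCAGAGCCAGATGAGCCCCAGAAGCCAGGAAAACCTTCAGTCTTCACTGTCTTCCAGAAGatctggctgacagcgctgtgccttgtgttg

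DGUOK-201 holds 264 coding bases in a pair of exons (chr2:73950585-73950732 and chr2:73957125-73957240, + strand) that are absent from DGUOK-202, which has 189 codons in place of 277. They are shown with 15 bases on either side.
DGUOK-201: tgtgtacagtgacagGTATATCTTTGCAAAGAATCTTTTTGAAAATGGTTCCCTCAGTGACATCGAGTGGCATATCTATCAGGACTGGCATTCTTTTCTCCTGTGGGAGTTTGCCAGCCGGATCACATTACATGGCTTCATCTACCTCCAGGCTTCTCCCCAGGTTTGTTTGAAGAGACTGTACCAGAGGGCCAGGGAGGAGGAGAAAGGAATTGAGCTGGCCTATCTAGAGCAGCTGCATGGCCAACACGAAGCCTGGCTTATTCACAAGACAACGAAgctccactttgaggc

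TK1-203 keeps 99 bases (chr17:78174951-78175049, - strand) in its coding sequence that are removed from TK1-201, giving 267 codons in place of 234. They are shown with 30 bases on either side.
TK1-203: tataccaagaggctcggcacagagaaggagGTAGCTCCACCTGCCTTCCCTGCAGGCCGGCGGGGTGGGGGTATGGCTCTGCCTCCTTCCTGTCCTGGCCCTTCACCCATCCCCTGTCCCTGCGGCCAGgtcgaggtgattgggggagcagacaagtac

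The gene values of the members ran from 4.39 to 181 FPKM over single libraries, on a scale corrected for length. TK1 was highest in the mean over the 6 libraries (132 FPKM), followed by HPRT1 (67.6), ADK (64.3), APRT (46.2), PNP (29.3), DGUOK (29.1), SLC29A1 (24.8), UCK2 (17.2), DCK (8.58) and SLC29A2 (8.21). Every member was in the upper part of the 12180 listed genes, from percentile 61.2 for SLC29A2 to percentile 98.5 for TK1. Ranges over the 6 libraries were separate only for the neighbours TK1 and HPRT1, SLC29A1 and UCK2, and UCK2 and DCK. HPRT1 was above ADK, PNP above DGUOK and DGUOK above SLC29A1 in 4 of 6 libraries each, ADK above APRT in 5 of 6 and DCK above SLC29A2 in 2 of 6, so those orders were not fixed. Summed over listed transcripts, UCK2 was at 42.9 to 50.4 FPKM, 2.56 to 3.07 times its gene value. PNP was at 14.8 to 21.2 FPKM by that sum, 0.515 to 0.817 times its gene value. The order and separations given here therefore hold for the gene values only.

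**Figure D1:**
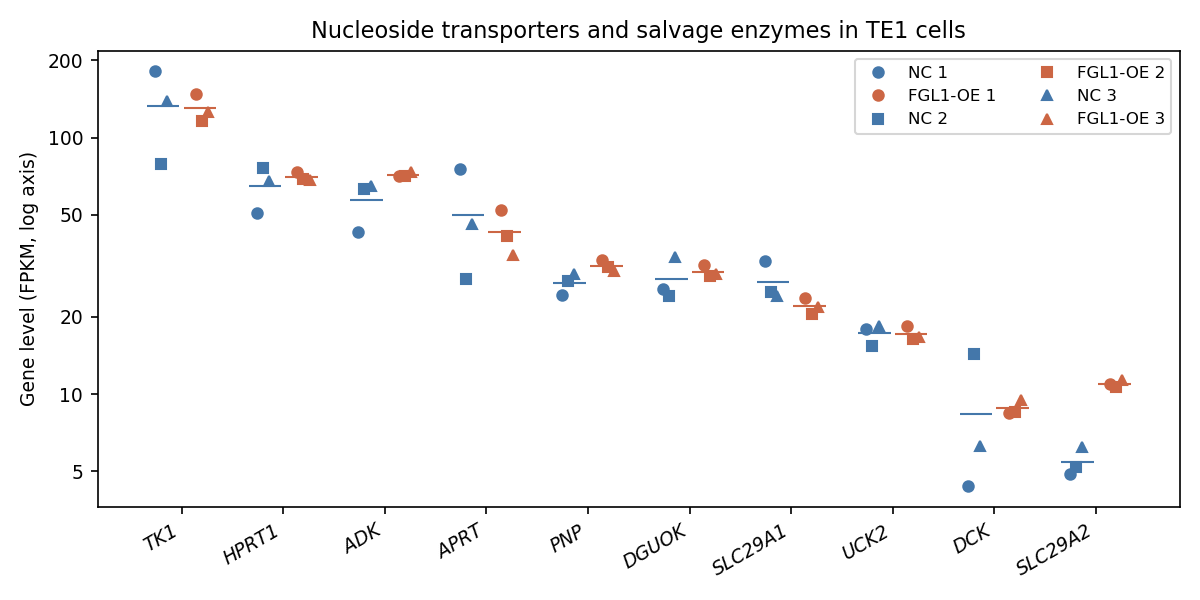
Gene level in FPKM on a log axis for the 10 genes in order of mean level. Points are libraries (circle, square and triangle for libraries 1, 2 and 3), blue for NC and orange for FGL1-OE, and horizontal lines are group means. SLC29A2 is the gene at the right, with 3 FGL1-OE points between 10.6 and 11.3 FPKM above 3 NC points between 4.88 and 6.25 FPKM.

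With limma and Benjamini-Hochberg adjustment over all genes, no member was called at an adjusted p-value of 0.05 (0 of 10, with 0.00832% called among 12017 genes tested, FGL1 alone). All 10 members passed the filter of a mean of at least 0.5 FPKM. SLC29A2 was the 1 member with an unadjusted p-value under 0.05, where 2.01% of all genes tested had one. The FGL1-OE and NC libraries did not overlap for 4 members, higher for SLC29A2, ADK and PNP and lower for SLC29A1, beside 7.15% of all genes tested. Nothing is read from these counts, since the selection of the members had seen this comparison. The median log2 fold change of FPKM + 1 was 0.12 over the members and 0.016 over all genes tested, with 7 members above 0 and 3 below.

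**Figure D2:**
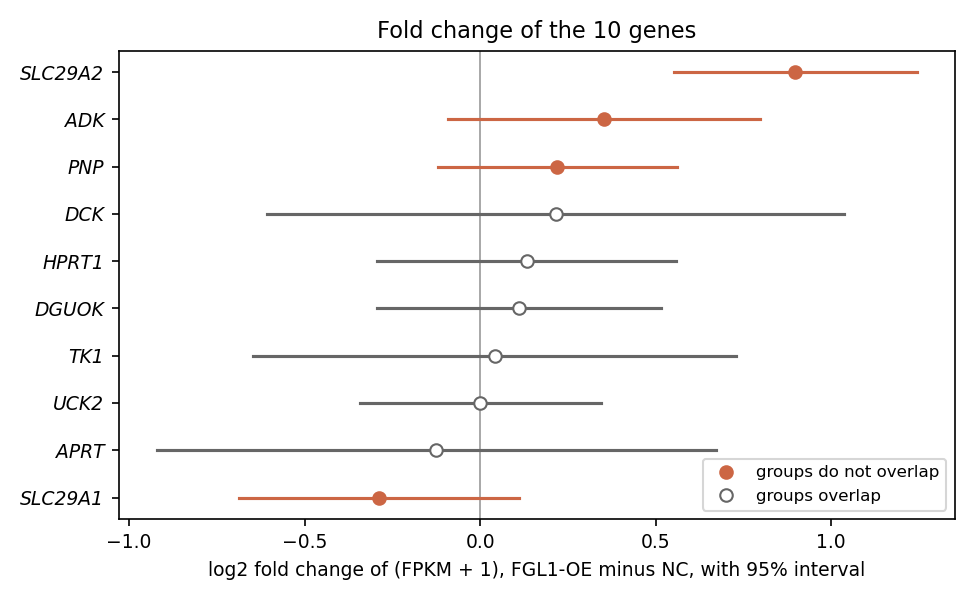
Difference in log2(FPKM + 1) between FGL1-OE and NC for each gene from limma's fit, with 95% intervals as horizontal lines. Filled points mark the 4 genes whose libraries did not overlap between groups. The interval of SLC29A2, from 0.55 to 1.24, is the only 1 of the 10 that does not cover 0.

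SLC29A2 (ENSG00000174669, chromosome 11, 66129992 to 66139685 on GRCh37) encodes ENT2, an equilibrative transporter that moves nucleosides and also nucleobases such as hypoxanthine. It measured 4.88, 5.21 and 6.25 FPKM in NC libraries 1, 2 and 3 and 10.9, 10.6 and 11.3 FPKM in FGL1-OE libraries 1, 2 and 3. By these gene values every FGL1-OE library was above every NC library, and the values within each group lay close together. The group means of 5.45 ± 0.717 FPKM and 11.0 ± 0.339 FPKM (SD over n = 3 each) stood in a ratio of 2.01. On the log2 scale the difference was 0.90 (standard error 0.15, 95% interval 0.55 to 1.24, adjusted p = 0.905 from limma), rank 5 of 12017 by p-value. Summed over listed transcripts the difference was 0.50. By that sum NC was at 4.52, 4.96 and 5.91 FPKM and FGL1-OE at 8.39, 6.09 and 8.66 FPKM. In bulk RNA, a larger share of expressing cells and more mRNA per cell cannot be told apart. An annotated gene on the opposite strand overlaps SLC29A2, as is also the case for ADK, PNP, UCK2 and DGUOK, and whether strand was used in quantification is not given in the sources used here.

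SLC29A1 (chromosome 6, 44187242 to 44201888 on GRCh37) encodes ENT1, the main equilibrative carrier in many cells. Its level was 33.1, 25.0 and 24.2 FPKM in NC libraries 1, 2 and 3, against 23.8, 20.6 and 21.9 FPKM in the FGL1-OE libraries. The FGL1-OE libraries were all below the NC libraries, with a gap of little width between NC 3 and FGL1-OE 1. The log2 difference was -0.29, with a 95% interval of -0.69 to 0.11 that covered 0 (standard error 0.17, adjusted p = 1.00 from limma). Without NC 1, the highest library, it was -0.15.

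Both carriers are shown side by side because they differed in opposite directions. The ratio of SLC29A2 to SLC29A1 was formed from the gene values after these were seen. It was 0.147, 0.209 and 0.258 in NC libraries 1, 2 and 3 and 0.460, 0.516 and 0.517 in the FGL1-OE libraries. SLC29A1 was thus the more abundant mRNA in all 6 libraries, and SLC29A2 came closer to it in FGL1-OE. The 3 libraries of each group were separate (p = 0.1 in an exact two-sided permutation test, which cannot give less with 3 against 3). This outcome was fixed in advance, since each carrier was already separate between groups, in opposite directions. A ratio within a library does not depend on the scaling between libraries. Concentrative carriers, which couple nucleoside uptake to sodium, were not listed (SLC28A1, SLC28A2 and SLC28A3). SLC29A3, which encodes the lysosomal and mitochondrial member of the family, measured 20.5, 17.3 and 18.2 FPKM in NC and 15.8, 15.1 and 15.5 FPKM in FGL1-OE, with a log2 difference of -0.25 (standard error 0.14, adjusted p = 1.00 from limma).

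**Figure D3:**
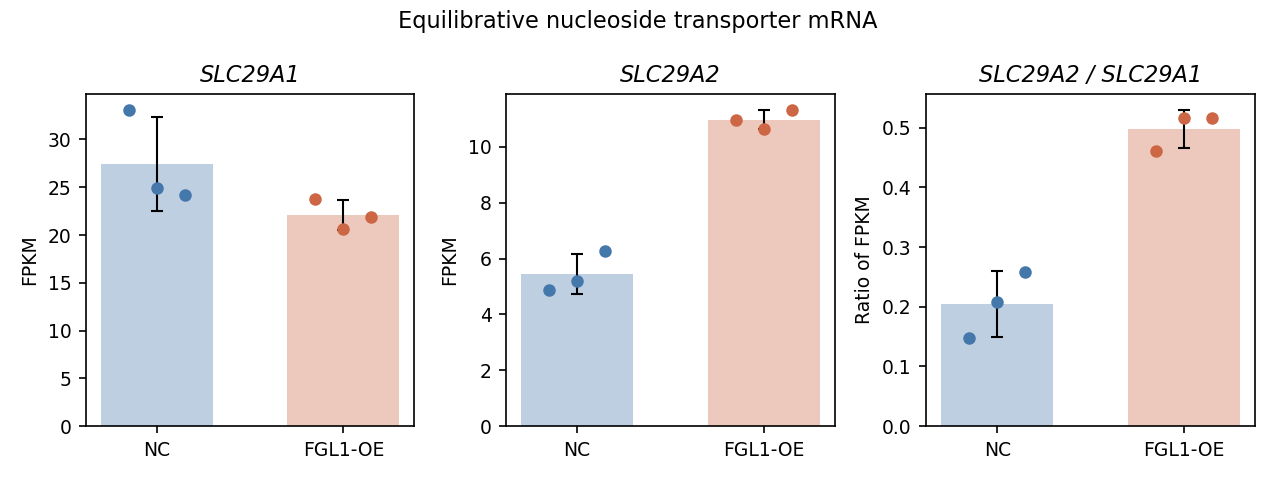
FPKM of SLC29A1 and SLC29A2 and the ratio between them in each group. Bars are means, error bars SDs over 3 libraries, and points single libraries. The ratio lies between 0.147 and 0.258 in NC and between 0.460 and 0.517 in FGL1-OE.

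ADK (chromosome 10, 75910943 to 76469061 on GRCh37) encodes adenosine kinase, which turns adenosine into AMP. The gene measured 42.8, 63.3 and 64.6 FPKM in NC libraries 1, 2 and 3 and 71.0, 71.0 and 73.2 FPKM in the FGL1-OE libraries. All FGL1-OE libraries were higher, and NC 1 stood below the other NC libraries. The log2 difference was 0.35 (standard error 0.19, 95% interval -0.092 to 0.80). Its adjusted p-value from limma was 1.00, and without NC 1 the difference was 0.16. Summed over its listed transcripts, ADK overlapped between groups. PNP (chromosome 14, 20937113 to 20945253 on GRCh37), purine nucleoside phosphorylase, cleaves inosine and guanosine into base and sugar phosphate. It measured 24.2, 27.6 and 29.3 FPKM in NC and 33.2, 31.4 and 30.3 FPKM in FGL1-OE. The groups were separate by a small margin, and the log2 difference was 0.22 (standard error 0.15, adjusted p = 1.00 from limma). It was 0.15 without NC 1 and 0.072 with summed transcripts, where the groups overlapped.

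HPRT1 (chromosome X, 133594183 to 133654543 on GRCh37) salvages hypoxanthine and guanine and is a common reference gene. Its values were 50.7, 76.4 and 67.6 FPKM in NC and 73.7, 69.0 and 68.1 FPKM in FGL1-OE. NC 2 was the highest and NC 1 the lowest of the 6, so the groups overlapped, with a log2 difference of 0.13 (standard error 0.18, adjusted p = 1.00 from limma). APRT (chromosome 16, 88875747 to 88878352 on GRCh37) converts adenine to AMP and measured 75.3, 28.0 and 46.0 FPKM in NC and 52.0, 41.3 and 34.9 FPKM in FGL1-OE. The same pair of NC libraries held its extremes in the opposite order, with NC 1 highest and NC 2 lowest. The ratio of HPRT1 to APRT accordingly ran from 0.674 in NC 1 to 2.73 in NC 2 and stayed between 1.42 and 1.95 in FGL1-OE.

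TK1 (chromosome 17, 76170156 to 76183314 on GRCh37), the cytosolic thymidine kinase, is made mainly in dividing cells around DNA replication. It measured 181, 79.2 and 139 FPKM in NC and 149, 116 and 126 FPKM in FGL1-OE. DCK (chromosome 4, 71858255 to 71896631 on GRCh37) phosphorylates deoxycytidine and purine deoxynucleosides and activates drugs such as gemcitabine. Its values were 4.39, 14.3 and 6.30 FPKM in NC and 8.42, 8.51 and 9.53 FPKM in FGL1-OE. In both genes the NC libraries enclosed all FGL1-OE libraries, and NC 1 and NC 2 were at opposite ends, TK1 being highest and DCK lowest in NC 1. The ratio of TK1 to DCK was 41.3, 5.53 and 22.0 in NC libraries 1, 2 and 3 and 13.3 to 17.6 in FGL1-OE. The log2 differences between groups were 0.041 for TK1 (standard error 0.30) and 0.22 for DCK (standard error 0.35), both with adjusted p = 1.00 from limma.

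UCK2 (chromosome 1, 165796768 to 165880855 on GRCh37), a uridine and cytidine kinase, was the member with the least difference. It measured 18.0, 15.4 and 18.4 FPKM in NC and 18.5, 16.4 and 16.8 FPKM in FGL1-OE, and the 95% interval of its log2 difference was -0.34 to 0.34. DGUOK (chromosome 2, 74153953 to 74186088 on GRCh37), the mitochondrial kinase of purine deoxynucleosides, measured 25.7, 24.2 and 34.3 FPKM in NC, against 32.0, 28.8 and 29.5 FPKM in FGL1-OE. Its groups overlapped, with a log2 difference of 0.11 (95% interval -0.30 to 0.52) that was 0.016 without NC 2 and 0.26 without NC 3.

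For all 10 members the SD of log2(FPKM + 1) was larger in NC than in FGL1-OE. The median SD over members was 0.279 in NC and 0.0817 in FGL1-OE, beside medians of 0.308 and 0.121 over all genes tested. The difference between NC 1 and NC 2 went with the GC content of the transcripts. DCK (37.2% GC) was 1.51 lower in NC 1 on the log2 scale (-1.51), HPRT1 (40.6% GC) differed by -0.58 and ADK (40.6% GC) by -0.55. APRT (63.8% GC) differed by 1.39 and TK1 (61.4% GC) by 1.18, whereas SLC29A2, with 61.0% GC, differed by -0.080. Spearman's rho with GC content was 0.867 over the 10 members and 0.784 over 11786 genes with a GC content, points that share these 2 libraries. The log2 difference between FGL1-OE and NC had a rho of -0.327 with GC content over the same genes and -0.370 over the members. With the GC trend of each library removed, an alternative chosen after seeing the data, the log2 difference was 0.96 for SLC29A2, 0.28 for ADK, 0.20 for PNP and -0.27 for SLC29A1 and between -0.024 and 0.13 for the other 6.

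**Figure D4:**
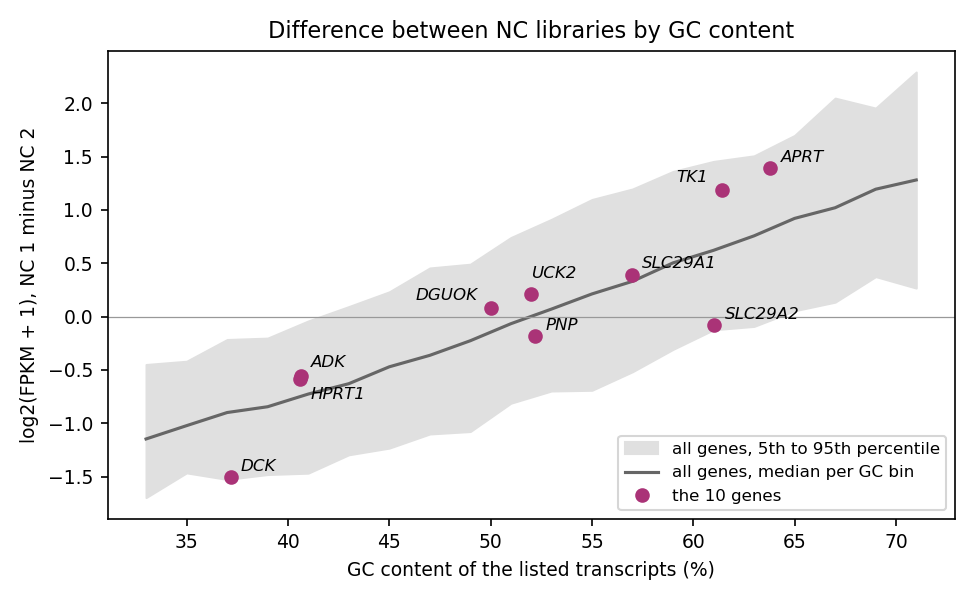
Difference of log2(FPKM + 1) between NC 1 and NC 2 against GC content of the listed transcripts. The grey line is the median and the band the 5th to 95th percentile of all genes in GC bins, and points are the 10 genes. DCK at -1.51 and APRT at 1.39 mark the ends, and SLC29A2 at -0.080 lies below the line.

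Within the genes, the transcript table gives the distribution over protein forms, estimated between transcripts that share most of their sequence. Of the 35 member transcripts, all with a mean of at least 0.5 FPKM, 0 had an adjusted p-value under 0.05 (0.0165% of 30330 transcripts tested) and 4 an unadjusted p-value under 0.05 (3.53% of those tested). The libraries did not overlap between groups for 6 (8.22% of those tested). These were SLC29A2-202, SLC29A2-207, DGUOK-202 and TK1-205, higher in FGL1-OE, and SLC29A1-206 and SLC29A1-208, lower in FGL1-OE. The transcripts' median log2 difference was -0.0060, beside 0.017 over all transcripts tested. The share held by the most abundant transcript overlapped between groups in each of the 9 members with more than 1 listed transcript.

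SLC29A2-202 measured 0.966, 0.178 and 0.020 FPKM in NC libraries 1, 2 and 3 and 6.71, 1.16 and 5.31 FPKM in the FGL1-OE libraries, a log2 difference of 1.82 (standard error 0.55, adjusted p = 1.00 from limma). FGL1-OE 2 was close to NC 1 and far from the other FGL1-OE libraries. SLC29A2-206, with the same coding sequence, ran the other way, at 0.954, 4.31 and 4.92 FPKM in NC and 0, 2.42 and 0.717 FPKM in FGL1-OE. SLC29A2-207, which lacks the 134-base exon shown above, measured 0, 0.470 and 0.627 FPKM in NC, against 1.68, 1.06 and 1.92 FPKM in FGL1-OE. Every 31-base word of SLC29A2-202 and SLC29A2-207 also occurs in another annotated SLC29A2 transcript. Summed over its 4 listed transcripts, SLC29A2 differed by 0.50 on the log2 scale (standard error 0.21). Its adjusted p-value from limma was 1.00, and the libraries were again separate. That sum was 0.926 to 0.951 of the gene value in NC and 0.572 to 0.767 in FGL1-OE, so the gene table and the transcript table differed more in FGL1-OE.

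SLC29A1 has 8 listed transcripts, 6 of which share 1 coding sequence of 456 codons and differ outside it. SLC29A1-206 measured 17.8, 6.54 and 14.3 FPKM in NC and 4.30, 3.79 and 1.42 FPKM in FGL1-OE (log2 difference -1.72, standard error 0.47, adjusted p = 1.00 from limma). SLC29A1-203, which encodes the same protein, measured 7.60, 1.92 and 0.936 FPKM in NC, against 16.9, 0.699 and 15.9 FPKM in FGL1-OE. SLC29A1-206 was lower in every FGL1-OE library, whereas SLC29A1-203 was high in FGL1-OE 1 and 3 and low in FGL1-OE 2. SLC29A1-208 measured 1.23 to 2.22 FPKM in NC, against 0.239 to 0.944 FPKM in FGL1-OE. The other 5, SLC29A1-201, SLC29A1-202, SLC29A1-205, SLC29A1-207 and SLC29A1-209, overlapped between groups, with values from 0 to 12.7 FPKM.

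DGUOK-202, without the 264 bases shown above, was at 2.38, 2.74 and 2.05 FPKM in NC libraries 1, 2 and 3 against 7.87, 7.82 and 5.45 FPKM in the FGL1-OE libraries. It held 10.7%, 11.0% and 6.72% of the summed DGUOK transcripts in NC and 23.2%, 23.3% and 20.2% in FGL1-OE. Level and share were both separate between groups, but the share is formed from the same values and adds no separate support. Shares were also separate for SLC29A2-207 and TK1-205 (higher in FGL1-OE) and for SLC29A1-206 and SLC29A1-208 (lower), and overlapped for SLC29A2-202. How often shares were separate over all transcripts was not computed. The log2 difference of DGUOK-202 was 1.24 (standard error 0.25, adjusted p = 0.703 from limma). DGUOK-208, a form of 89 codons, was the most abundant in all 6 libraries, at 13.8 to 26.8 FPKM in NC and 10.9 to 21.8 FPKM in FGL1-OE. The full-length DGUOK-201 measured 0.123, 8.36 and 1.73 FPKM in NC, against 10.8, 3.95 and 10.7 FPKM in FGL1-OE, with overlapping groups. No 31-base word of any of the 3 forms is its own.

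**Figure D5:**
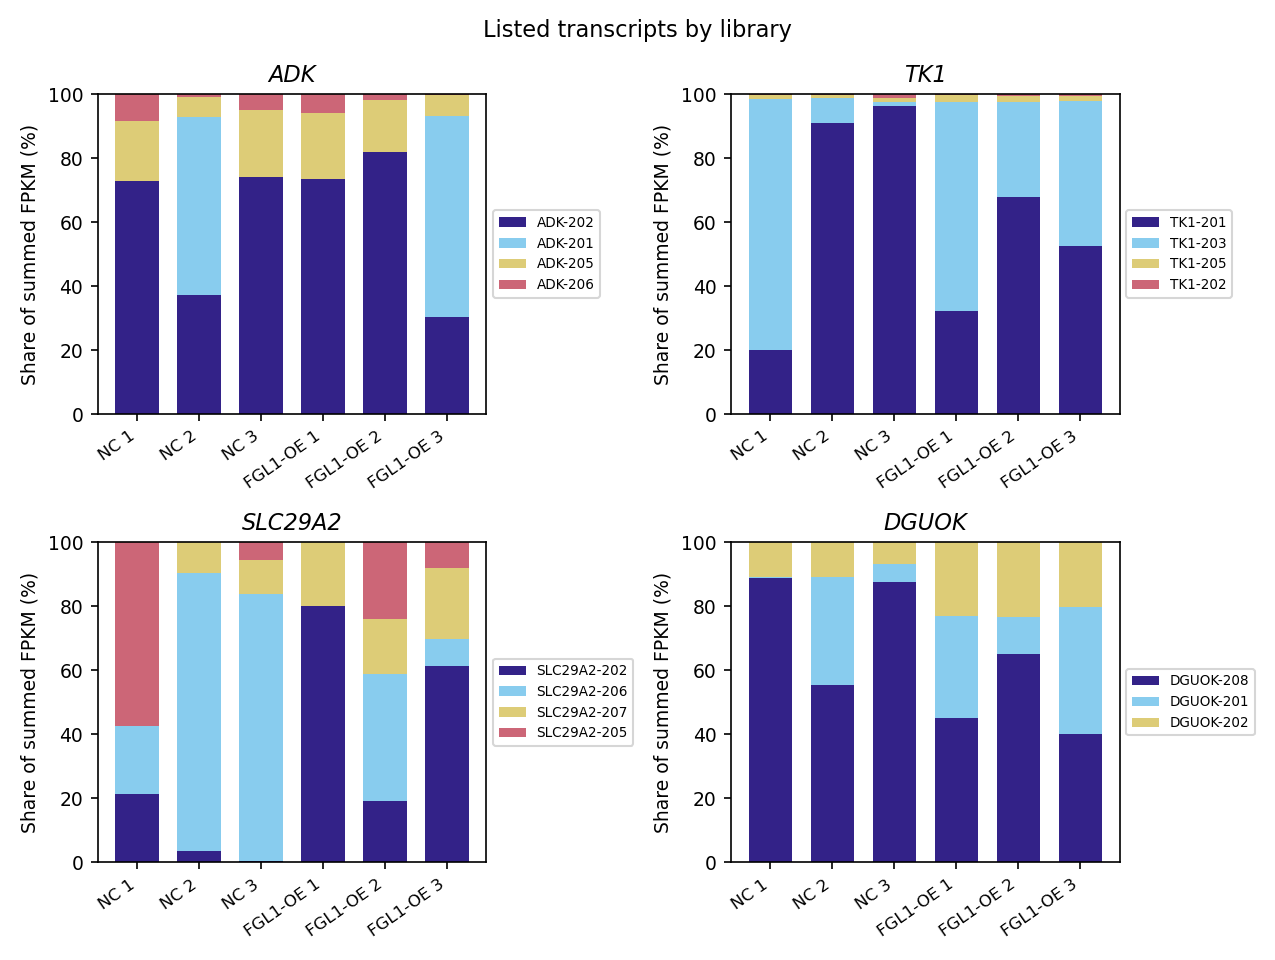
Share of the summed FPKM of the listed transcripts of ADK, TK1, SLC29A2 and DGUOK in each library. Each bar is 1 library and each colour a transcript. DGUOK-202 takes 6.72% to 11.0% in NC and 20.2% to 23.3% in FGL1-OE, while ADK-201 takes 55.6% in NC 2, 62.6% in FGL1-OE 3 and at most 0.126% in the other 4 libraries.

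The estimates for the ADK forms differed from library to library, and whether the cells differed in the forms they made was not tested. ADK-201, the nuclear form, measured 0.024, 71.2 and 0.077 FPKM in NC libraries 1, 2 and 3 and 0.138, 0.035 and 97.2 FPKM in the FGL1-OE libraries. It was high in NC 2 and FGL1-OE 3 and near 0 in the other 4. ADK-202, the cytoplasmic form, measured 48.1, 47.8 and 74.5 FPKM in NC, against 80.7, 89.7 and 47.2 FPKM in FGL1-OE. Both transcripts from the upstream start (ADK-201 and ADK-205) together took 18.7%, 61.8% and 20.8% of the ADK sum in NC and 20.5%, 16.3% and 69.2% in FGL1-OE, with no separation of the groups. The ADK gene value in NC 2 (63.3 FPKM) was near that in NC 3 (64.6 FPKM) and above that in NC 1 (42.8 FPKM). In FGL1-OE 3 it was 73.2 FPKM, near the others of its group. In NC 2 and FGL1-OE 3 the sum of the listed transcripts was 2.02 and 2.12 times the gene value, against 1.54 to 1.55 times in the other 4. ADK-201 has no 31-base word of its own. Of the other upstream and downstream forms, ADK-205 measured 7.94 to 20.8 FPKM in NC and 10.1 to 22.4 FPKM in FGL1-OE, and ADK-206 measured 1.12 to 5.57 and 0.619 to 6.67 FPKM.

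The 250 bases before each RefSeq start of ADK are shown because the listed transcripts of this gene are annotated from a pair of starts. They lie on GRCh38.p14 at chr10:74150971-74151220 and chr10:74176513-74176762 (+ strand). Capitals mark the letters GGGCGG, the core of a GC box, on either strand. The RefSeq starts, 74151221 and 74176763, are not those of the listed transcripts in GENCODE. These are at 74151229 for ADK-201, 74151185 for ADK-205, 74176686 for ADK-202 and 74176489 for ADK-206. Both windows thus include bases after the start of a listed transcript.
ADK upstream start: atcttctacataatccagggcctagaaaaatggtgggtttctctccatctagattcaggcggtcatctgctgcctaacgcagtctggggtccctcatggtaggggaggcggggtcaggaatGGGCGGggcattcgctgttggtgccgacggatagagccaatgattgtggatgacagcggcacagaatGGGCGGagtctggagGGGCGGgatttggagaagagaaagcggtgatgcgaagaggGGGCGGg
ADK downstream start: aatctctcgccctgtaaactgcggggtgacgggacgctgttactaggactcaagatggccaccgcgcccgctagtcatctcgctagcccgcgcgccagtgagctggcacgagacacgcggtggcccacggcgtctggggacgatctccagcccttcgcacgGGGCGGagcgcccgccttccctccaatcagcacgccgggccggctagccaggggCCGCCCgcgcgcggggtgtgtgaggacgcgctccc

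The upstream window holds 4 such matches and 57.6% GC, the downstream one 2 matches and 70.8% GC. All 12 RefSeq windows found for 9 of the 10 members (SLC29A2 is not among them) hold at least 1 match, and 42.6% of 35116 windows of the same length do. CCAAT on either strand was found in 6 of the 12 (32.0% of all windows) and TATAAA in 1, a TK1 window (10.7% of all windows). These are matches of letters only.

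TK1-203, with the 99 bases shown above, measured 157, 7.00 and 1.88 FPKM in NC and 109, 38.9 and 65.1 FPKM in FGL1-OE. It held 78.4% of the TK1 sum in NC 1 and 1.18% in NC 3, with all FGL1-OE libraries between them. TK1-201, the form of 234 codons, measured 40.0, 82.4 and 153 FPKM in NC, against 53.8, 89.3 and 75.0 FPKM in FGL1-OE, and TK1-205 was at 1.03 to 2.28 FPKM in NC, against 2.33 to 3.33 FPKM in FGL1-OE. DCK-203 was listed at 4.08 FPKM in NC 3 and at 0 in the other 5 libraries, where DCK-201 held the whole sum. UCK2-205 was at 17.5 FPKM in NC 2 and at 3.04 FPKM or less elsewhere. PNP-201 went from 16.0% of the PNP sum in NC 1 to 96.6% in NC 2, with 50.6% to 88.9% in FGL1-OE. The opposite pattern was seen in PNP-203, at 14.3 FPKM in NC 1 and 0.325 FPKM in NC 2, while PNP-205 ran from 0.169 to 2.35 FPKM over the 6 libraries. APRT-201 was the most abundant APRT form in every library, at 28.5 to 94.6 FPKM in NC and 38.8 to 51.7 FPKM in FGL1-OE. APRT-211 was at 1.93 FPKM in FGL1-OE 3 and between 18.0 and 27.3 FPKM elsewhere, APRT-202 at 10.1 to 31.7 FPKM and APRT-204 at 1.28 to 2.11 FPKM. UCK2-201 was at 29.8 to 50.4 FPKM and TK1-202 at 0.196 to 1.78 FPKM over the 6 libraries, both with overlapping groups. Of the words of DCK-201 and DCK-203, 6.29% and 7.13% also occur in MOB1B, an overlapping gene on the same strand. For UCK2-201 and UCK2-205, 1.93% and 3.60% occur in MIR3658, which also overlaps on the same strand. Of those of HPRT1-201, 0.218% occur in the pseudogene HPRT1P3.

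Around the members, 64 further symbols of nucleoside transport, salvage, deamination and breakdown, nucleotide kinases and deoxynucleotide synthesis were taken from lists of the route, and 52 were tested. None had an unadjusted or adjusted p-value under 0.05 (limma, 0 of 52, where 2.01% of all genes tested had an unadjusted one). The groups did not overlap for 5 (9.62%, beside 7.15% of all genes tested), and the median log2 difference was 0.064. These were TYMS, thymidylate synthase (145 to 171 FPKM in NC and 171 to 174 in FGL1-OE), MTHFD1, an enzyme of folate metabolism (17.6 to 27.5 and 28.6 to 30.6), MTAP, which recycles methylthioadenosine (0.937 to 1.35 and 1.40 to 2.07), NME6, a nucleoside diphosphate kinase family member (2.81 to 3.25 and 2.24 to 2.72), and SLC29A3 as above. The highest gene of the breakdown list was CDA, cytidine deaminase, at 20.2 to 32.9 FPKM in NC and 22.8 to 27.9 FPKM in FGL1-OE, and that of the kinase list NME2, at 76.5 to 109 and 89.2 to 102 FPKM.

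De novo synthesis, the other source of nucleotides, was compared in the same fit, where 7.15% of all genes tested were separate between groups. Among 13 tested genes of purine synthesis, limma gave 0 with an unadjusted p-value under 0.05, and 1 was separate between groups. This was ATIC, which carries out the last steps to IMP, at 25.1 to 29.8 FPKM in NC and 31.2 to 34.1 FPKM in FGL1-OE. The list's median log2 difference was 0.17. IMPDH2, the most abundant gene of that list, was at 75.6 to 88.8 FPKM in NC and 88.2 to 99.9 FPKM in FGL1-OE. Of 5 pyrimidine genes, UMPS and CTPS1 were separate and higher in FGL1-OE, and the median was 0.10. CTPS1, which makes CTP, had 26.9 to 29.8 FPKM in NC and 30.6 to 33.7 FPKM in FGL1-OE. Of 12 proliferation genes, PCNA (152 to 181 and 188 to 191 FPKM) and CCNB1 (37.2 to 55.7 and 59.6 to 64.6 FPKM) were separate, with a median of 0.10. TK1, which is tied to replication, overlapped between groups. The part of proliferation in the members' values was not tested.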

How the data were processed

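The authors deposited FPKM values per library for protein-coding genes and transcripts, made with StringTie on GRCh37 per the submitters' processing notes. The aligner and versions are not given in the sources used here. The tables also hold the authors' own comparison (fold changes and p-values), which was not used. Columns of no known sample numbered 0. Low values times length were within 0.1 of whole reads for 23.5% to 24.5%, where 20% is the level of uniform values, so counts could not be recovered and depth and counting error are unknown.

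Genes or transcripts averaging 0.5 FPKM or more over the libraries were compared with limma 3.58.1 (R 4.3.3) after log2 transformation of FPKM plus a pseudocount of 1. The model held the group alone, and Benjamini-Hochberg adjusted p-values covered each whole table at 0.05. This scale understates changes of low genes. Single values had exact two-sided permutation tests. Words of 31 bases, GC content and coding sequence came from GENCODE v29 transcripts on GRCh38, and promoters from RefSeq. Coordinates of genes are those of the tables.

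The members and the gene lists were chosen with earlier results of these data known. The text names all members and their transcripts, FGL1, and of the lists the genes with an unadjusted p-value under 0.05 or non-overlapping groups and the most abundant gene of each list with listed members. Ratios between members were chosen after their values were seen. On simulated data with 200 changed features, the code recovered 42.0% and 87.5% at log2 changes of 1 and 2 among 12017 genes, and 0% and 15.0% among 30330 transcripts. The simulated noise was independent between features and had the same SD in both groups. It lacked the GC trend and the wider NC spread of these libraries, so the percentages check the code and are not the power for these data. Each library was left out in turn, and other alternatives were sums of listed transcripts, a replicate block, quantile normalization, a common sum per library, a pseudocount of 0.1, and a filter set to 1 FPKM or removed. Removal of the GC trend was added after seeing the data.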

Additional observations from a re-analysis of the deposited data

How the results depend on the processing

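The number of members called by limma at an adjusted p-value of 0.05 was 0 in each of the 14 alternatives for genes and the 12 for transcripts, and SLC29A2 had an unadjusted p-value under 0.05 in each alternative for genes. Its log2 difference ran from 0.50 with summed transcripts to 1.00, and its adjusted p-value from 0.172 to 1.00. Without NC 2, where 2618 genes had an unadjusted p-value under 0.05 in place of 242, ADK and DCK had one as well. Members with separate groups numbered 4 to 6 when single replicates were left out, where groups separate with all libraries must stay so. The share of all genes that were separate in these fits was not computed, so nothing is read from this range. The median of the members stayed between 0.057 and 0.14, and that of the surrounding lists between 0.045 and 0.090.

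Of 140 values of member genes under the alternatives, 12 had the opposite sign of the value reported, all of members whose groups overlapped. UCK2 was at 0.00013 with a pseudocount of 0.1, and DCK at -0.31 with summed transcripts. With 1 replicate left out at a time, the log2 difference ranged from -0.032 to 0.26 for HPRT1, -0.47 to 0.22 for APRT, -0.29 to 0.30 for TK1, -0.11 to 0.64 for DCK and -0.075 to 0.045 for UCK2. For HPRT1, APRT, TK1 and DCK these ends were the fits without NC 1 and without NC 2. The cause of these changes of sign was not tested. For DGUOK it ranged from 0.016 to 0.26, for PNP from 0.15 to 0.28 and for SLC29A1 from -0.37 to -0.15, with no change of sign. The alternatives were computed for 6 transcripts (DGUOK-202, SLC29A2-202, SLC29A2-206, SLC29A2-207, SLC29A1-206 and SLC29A1-208), whose 71 values kept their sign. Other transcripts had none computed one by one, and SLC29A2-207 had no value with a mean of at least 1 FPKM.

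Members whose leading transcript share was separate between groups numbered 0 with all libraries and 0 to 3 with 1 replicate left out. Separation is easier to reach with fewer libraries, and no share over other genes was computed. Whether the replicate numbers mark pairs is not known. The correlations of the deviations of same-numbered libraries were 0.345, 0.282 and -0.0614. Those of differently numbered libraries were not set beside them, so these values cannot decide it. With the replicate block the members called stayed at 0, and 1 member had a leading share that differed in the same direction within each number.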

Other observations

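Of the 10 epithelial markers tested, 8 overlapped between groups and 2, CDH1 and KRT6A, were separate, beside 7.15% of all genes tested. CDH1, which encodes E-cadherin, was at 44.2, 32.2 and 52.5 FPKM in NC libraries 1, 2 and 3 and at 61.7, 61.7 and 62.0 FPKM in the FGL1-OE libraries, with a log2 difference of 0.54 (95% interval 0.084 to 1.00, adjusted p = 1.00 from limma). KRT6A, a keratin of stratified epithelium, was at 160, 108 and 139 FPKM in NC and at 197, 183 and 192 FPKM in FGL1-OE, with a log2 difference of 0.50 (95% interval 0.086 to 0.92, adjusted p = 1.00 from limma). Both were higher in all FGL1-OE libraries than in any NC library. KRT18, the most abundant of these markers, was at 505, 294 and 416 FPKM in NC and at 462, 410 and 397 FPKM in FGL1-OE. KRT8 and KRT5 had log2 differences of -0.075 and -0.064. CDH1, KRT6A, KRT18, KRT8 and KRT5 had a larger SD in NC than in FGL1-OE, as the members did. The marker DSP did not, with an SD of 5.47 FPKM in NC and 6.64 FPKM in FGL1-OE.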
